A study of Homo sapiens with 5 samples.

Results

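Loss of ARID1A was examined in 3 of the 5 in situ Hi-C libraries of the series. The assay ligates DNA ends that lay side by side in the nucleus and counts the ligated pairs as contacts. All libraries came from RMG1, a cell line established from a clear cell carcinoma of the ovary. The control library carried a control hairpin RNA (shControl) and was wild type for ARID1A and CAPH2. The 2 knockout (KO) libraries, replicates 1 and 2, came from RMG1 cells edited at ARID1A with CRISPR and were wild type for CAPH2. The members were chosen by these labels, and the comparison used chromosomes 1 to 22. The remaining 2 libraries, in which CAPH2 was knocked down by a hairpin (KD, wild type for ARID1A), entered the tests for the spread between replicates and fixed the compartment classes. The control shares the hairpin method with the KD libraries and not with the KO libraries, so ARID1A loss and the way the cells were made cannot be told apart. The labels do not say whether the KO libraries came from separate cultures or clones, and p-values therefore rest only on differences among these libraries, which could be technical.

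ARID1A is the large subunit of the canonical BAF (SWI/SNF) complex, which uses ATP to move nucleosomes at enhancers and promoters, and it is often lost in ovarian clear cell carcinoma. Condensin II, of which CAPH2 (current symbol NCAPH2) is part, forms loops of chromatin and helps keep each chromosome in its own territory. In the nucleus each chromosome folds mostly on itself (cis contacts) and touches others (trans contacts) at its surface. Along a chromosome, active gene-rich stretches (compartment A) and inactive stretches (compartment B) each contact their own kind.

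The deposited values were balanced contact signal between bins of 1 Mb, and 2635 bins were used of 2667 measured in all libraries. Whole contacts worked back from those values came to 47.9 M in the control, where M stands for megacontacts. KO replicate 1 held 31.4 M and replicate 2 held 32.5 M, and the KD libraries 55.7 M and 85.0 M. Of bin pairs on different chromosomes, 14.2% held no contact in the control, against 26.6% and 27.0% in the KO libraries. Bins this wide cannot show the edit at ARID1A.

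The control and the KO libraries first differed in which chromosomes were joined by very strong point signals. In a cancer line a fixed bin pair on different chromosomes with a signal far above its surroundings is what a rearranged chromosome gives, and such a pair is called a join here. A join was a trans bin pair with at least 50 recovered contacts and a signal of at least 30 times that expected from the trans totals of its bins in the control or a KO library, with weaker pairs within 10 Mb merged into it. This rule was chosen after the data were seen, and the joins are described without a test. Of 48 joins, 39 stood at 15 times expectation or more in the control and both KO libraries. In those 39 the ratio of KO to control signal had a median of 1.01 in replicate 1 (range 0.691 to 1.46) and 0.979 in replicate 2 (range 0.727 to 1.43). The other 9 set the libraries apart.

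A pair of joins between chromosomes 1 and 10 was found in the control and was at background in both KO libraries. The stronger one linked chr1:22000001-23000000 with chr10:78000001-79000000 (coordinates are hg19) and stood at 76.3 times expectation in the control, 2.19 in KO replicate 1 and 0.585 in KO replicate 2. It held 408.5 recovered contacts in the control, where midway values are kept, and 5 and 2 in the KO libraries. At the control's rate the KO libraries would have held 252 and 242 contacts, while the exact Poisson 95% intervals, which cover counting error only, reach 11.7 and 7.22. The second linked chr1:25000001-26000000 with chr10:113000001-114000000, with 205 contacts in the control, 1 in KO replicate 1 and 0 in KO replicate 2, where the same kind of interval reaches 3.69. Both joins were present in the KD libraries, at 61.2 and 56.2 times expectation for the stronger one.

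Further joins separated the KO replicates from each other. A join of chr11:116000001-117000000 with chr20:8000001-9000000 stood at 111 times expectation in the control and 196 in KO replicate 2 (651 and 1030 contacts), but held 1 contact in KO replicate 1. A join of chr13:110000001-111000000 with chr14:74000001-75000000 stood at 56.8 in the control, 1.66 in KO replicate 1 and 48.2 in KO replicate 2. A join of chr1:26000001-27000000 with chr5:56000001-57000000 stood at 99.1 in the control, 7.59 in KO replicate 1 and 91.7 in KO replicate 2. KO replicate 1 thus lacked or nearly lacked 3 joins that the control and KO replicate 2 shared.

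KO replicate 2 in turn held joins that the others did not. Between chr3:183000001-184000000 and chr6:32000001-33000000 it had 177.5 contacts (74.0 times expectation), against 3 in the control and 2 in KO replicate 1. Between chr10:101000001-102000000 and chr14:93000001-94000000 it had 156 contacts (38.1 times), against 15 and 6. Between chr5:56000001-57000000 and chr18:3000001-4000000 it stood at 47.0 times expectation with 85 contacts, against 10.4 times with 35 contacts in the control and 0 contacts in KO replicate 1. The last of the 9, between chr2:107000001-108000000 and chr3:180000001-181000000, varied in degree, at 23.2, 33.4 and 9.88 times expectation in the control and KO replicates 1 and 2. No join outside the control was shared by both KO libraries at 15 times expectation or more. The 2 KO libraries therefore did not hold the same set of joins, and each result below is given for each of them.

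**Figure D1:**
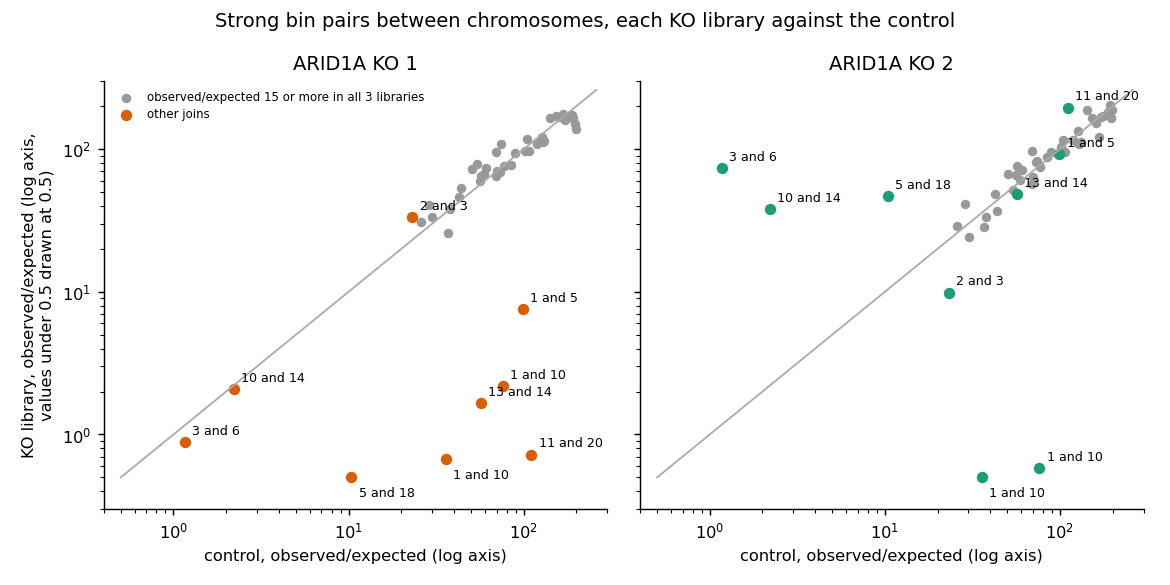
Signal over expectation of the 48 joins in each KO library (vertical, log axis) against the control (horizontal, log axis), with each point 1 bin pair labelled by its chromosomes where it was not at 15 or more in all 3 libraries. The 39 shared joins follow the diagonal, the 2 joins of chromosomes 1 and 10 lie at the foot of both panels, and the joins of 11 and 20, 13 and 14, and 1 and 5 lie far below the diagonal in KO replicate 1 alone.

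The KO libraries also differed from the control in how many contacts each chromosome yielded. Recovered contacts per bin, centred on the median bin of each library, were higher on chromosome 19 by 0.63 and 0.53 (log2, KO replicates 1 and 2 minus control), on 22 by 0.57 and 0.53 and on 17 by 0.41 and 0.38. They were lower on chromosome 18 by 0.61 and 0.64. On chromosome 13 the replicates parted, at -0.64 and -0.18. In the KD libraries no chromosome moved by more than 0.12. The outer 20% of bins by compartment showed the same contrast, with A bins higher by 0.33 and 0.33 and B bins lower by 0.41 and 0.45 in the KO libraries. Balanced signal has these yields divided out. Their part in the results below was not tested except where a value is given.

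In 11 of 272 blocks of 10 Mb the KO replicates lay over 0.5 (log2) apart, against 0 blocks for the KD libraries. Both sides of the join of chromosomes 11 and 20 lay in such blocks. On chromosome 11 from 110 to 120 Mb, which holds the bin joined to chromosome 20, KO replicate 1 was at -0.75 and KO replicate 2 at 0.03 relative to the control. On chromosome 20 from 0 to 10 Mb, the other side of that join, they were at -0.01 and 0.50. On chromosome 13, 5 of the 11 blocks lay between 50 and 110 Mb and were lower in replicate 1. The lowest block of that stretch, at 60 to 70 Mb, was at -1.08 in replicate 1 and -0.60 in replicate 2, just under 0.5 apart. The first 10 Mb of chromosome 19 were at 1.09 in replicate 1 and 0.23 in replicate 2.

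**Figure D2:**
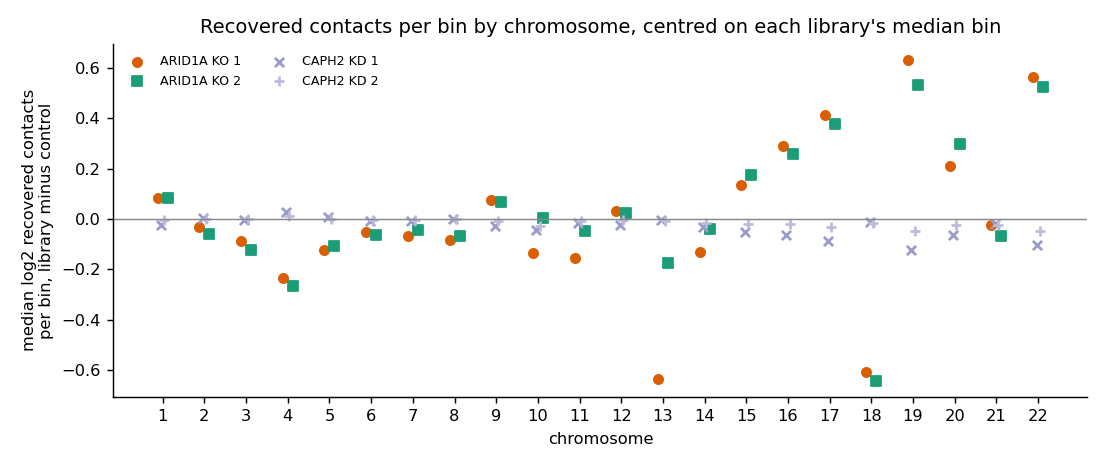
Median log2 recovered contacts per bin on each chromosome, library minus control, each library centred on its median bin, with circles and squares for KO replicates 1 and 2 and crosses for the KD libraries. Both KO libraries lie at or above 0.53 on chromosomes 19 and 22 and at or below -0.61 on chromosome 18, while the KD libraries stay within 0.12 of the control.

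Contacts between chromosomes were then compared as the log2 of signal over the expectation from the totals of both chromosomes, for all pairs of the 22 chromosomes. By limma with Benjamini-Hochberg adjustment over all pairs, 10 pairs fell in the KO and 0 rose. Those called lower were 4.33% of the pairs tested. Before adjustment 73 pairs had p under 0.05. Without KO replicate 1 or 2 the KD libraries alone gave the spread, and 176 and 158 pairs were called, while 21 were called with either KD library left out. Both KO libraries lay below the control for 64.1% of all pairs and above it for 13.4%, with a median difference of -0.05, and most differences were small.

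Chromosomes 1 and 10 changed most. Their log2 signal over expectation was -1.30 in the control, -1.90 in KO replicate 1 and -1.88 in KO replicate 2, so that both KO libraries lay below the control and close together. The difference was -0.59 (SE 0.025, limma adjusted p = 0.0021), and it was -0.61 in recovered contacts (adjusted p = 0.0019). It lay on the long arm of chromosome 10. The pair 1q and 10q went from -1.15 in the control to -1.96 in each KO library (difference -0.81, adjusted p = 0.0029 over 724 arm pairs), and 1p with 10q differed by -0.75 (adjusted p = 0.040). The short arm of chromosome 10 held no such difference, at -0.03 with 1p (SE 0.029) and 0.01 with 1q (SE 0.11). The long arm of chromosome 10 carries the chromosome 10 side of both joins found in the control and at background in the KO libraries. Their chromosome 1 side lies on the short arm, so neither join lies in the pair 1q and 10q, which fell most. The part of the joins in the fall was not tested.

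Chromosome 18, a gene-poor chromosome that usually lies towards the nuclear edge, accounted for 8 of the 10 pairs that fell. They were its pairs with chromosomes 14 (-0.40), 15 (-0.28), 5 (-0.27), 11 (-0.26), 10 (-0.25), 7 (-0.24), 9 (-0.24) and 4 (-0.16), with SEs from 0.022 to 0.030 and limma adjusted p from 0.0038 to 0.040. For chromosomes 14 and 18 the values were -1.53 in the control, -1.92 and -1.93 in the KO libraries and -1.35 in both KD libraries. Both KO libraries lay below the control in all 21 pairs of chromosome 18, with a median difference of -0.25 against -0.05 over all pairs. The lower recovered yield of chromosome 18 moved with this. In recovered contacts the median over its 21 pairs was 0.03, 1 pair fell, 2 rose, and 5 of the 8 named pairs turned to the other side of 0. Among these the pair of 4 and 18 was called higher, at 0.19 (adjusted p = 0.015), and its call in balanced signal was lost with either KD library left out (adjusted p = 0.14). When expectation came from trans totals alone, the median was -0.01 and no pair of chromosome 18 was called.

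The last pair that fell was of the acrocentric chromosomes 14 and 15, whose short arms carry ribosomal RNA genes. It stood at -1.29 in the control, -1.49 in KO replicate 1 and -1.48 in KO replicate 2 (difference -0.19, SE 0.022, limma adjusted p = 0.025). It was also called in recovered contacts, at -0.19 (adjusted p = 0.015), but not with trans totals, at -0.08 (adjusted p = 0.30). Among the 10 acrocentric pairs this was the 1 call, and the median was -0.08.

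Lists of chromosomes were described by counts alone. Chromosomes 16, 17, 19, 20 and 22 are small and gene-rich and usually share the nuclear interior. In the 10 pairs among them 0 passed limma's test and both KO libraries lay below the control in 9, with a median of -0.08. In recovered contacts all 10 of these pairs were called lower, with a median of -0.29, and these are chromosomes with higher recovered yield in the KO libraries. The 25 pairs of a small gene-rich with a large chromosome (1 to 5) had a median of 0.01, and the 10 pairs within the large chromosomes one of -0.05. Pairs with chromosome 19 were above the control in both KO libraries in 12 of 21 cases, against 13.4% of all pairs, with a median of 0.05. In recovered contacts their median was -0.04, with 5 called lower and 0 higher. The highest difference of any pair was that of 6 and 19, at 0.16 (adjusted p = 0.10, not called). In recovered contacts the pair of 6 and 19 was at 0.05.

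Some chromosome pairs with joins that separated the KO replicates differed between those replicates, and 3 are given here. Chromosomes 13 and 14 stood at -0.75 in the control, -1.64 in KO replicate 1 and -0.92 in KO replicate 2. Chromosomes 10 and 14 stood at -1.54, -1.78 and -1.15, and chromosomes 11 and 20 at -1.17, -1.56 and -1.01. In the first of these both KO libraries were lower, by unlike amounts, and in the others they lay on opposite sides of the control. None of the 3 was called (adjusted p = 0.30, 0.85 and 0.77 by limma). Chromosomes 5 and 18 also held such a join, but their pair was among those called lower.

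**Figure D3:**
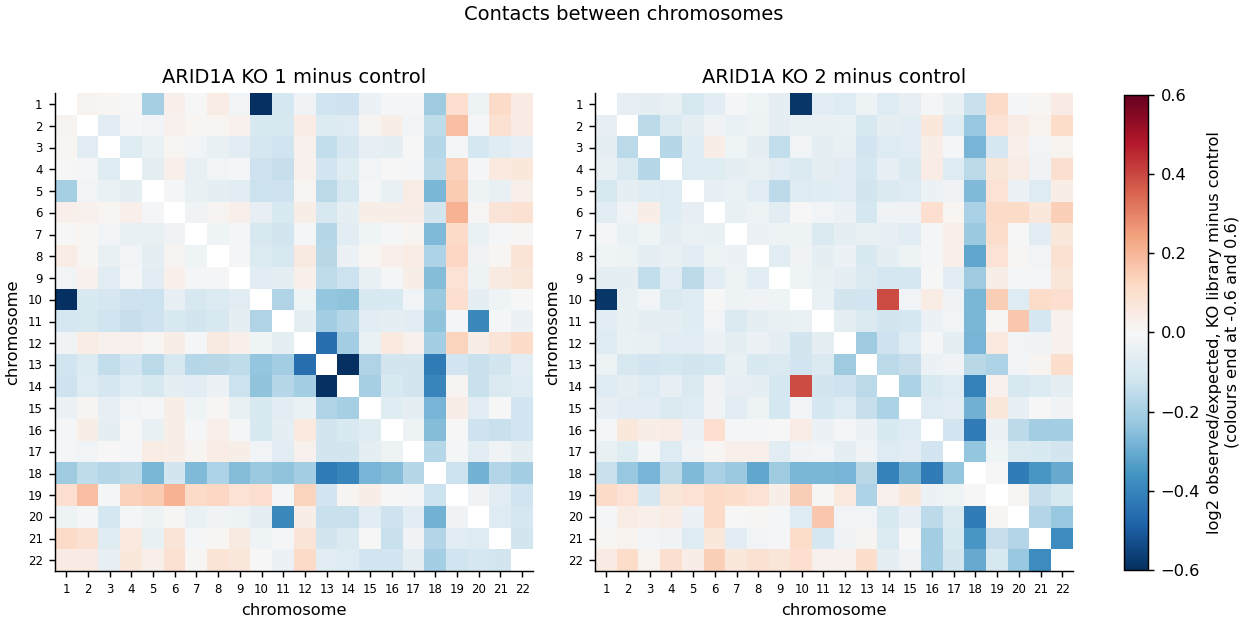
Difference of each KO library from the control in log2 signal over expectation for all pairs of the 22 chromosomes, with blue lower and red higher in the KO and colours ending at -0.6 and 0.6. Both maps show the dark pair of 1 and 10 and the blue stripe of chromosome 18, while 13 and 14 are darkest in replicate 1 and 10 and 14 are red in replicate 2.

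Between arms, 13 of 724 pairs were called, all lower (1.8% of those tested), with 194 at an unadjusted p under 0.05. Without KO replicate 1 or 2 the calls were 429 and 431. Beyond 1q and 10q and 1p and 10q, the named pairs all held an arm of chromosome 18. They were 14q and 18q (-0.43), 18q and 20p (-0.41), 9p and 18q (-0.34), 10p and 18p (-0.33), 15q and 18q (-0.31), 14q and 18p (-0.30), 7p and 18q (-0.30) and 7p and 18p (-0.27), with limma adjusted p from 0.026 to 0.044. For 14q and 18q the log2 values were -1.57 in the control, against -1.99 and -2.01 in the KO libraries. Both arms of chromosome 18 took part. Both KO libraries had the long arm below the control in 36 of its 37 pairs (median -0.25), and likewise the short arm (median -0.20), against 56.5% of all arm pairs. With the control and KO libraries alone in the fit, which leaves 1 residual degree of freedom, or with either KD library left out, 0 arm pairs were called. With trans totals both pairs of 10q with the arms of chromosome 1 were called and no pair of chromosome 18.

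Over all contacts the trans share was slightly lower in both KO libraries, and the direction depended on contacts within a bin. It was described without a test. It was 22.5% in the control, 21.4% and 20.7% in the KO libraries (mean 21.05% ± 0.441, SD, n = 2), and 23.9% and 23.7% in the KD libraries. Contacts within a 1 Mb bin took 45.5% of the control and 47.7% and 51.5% of the KO libraries. Without them the trans share was 41.4% in the control, against 40.8% and 42.8% in the KO libraries, which then lay on either side of the control. In recovered contacts without those within a bin, both KO libraries were higher, at 42.5% and 44.7% against 41.3% in the control.

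By chromosome, with all contacts counted, both KO libraries had a lower trans share than the control on 21 of 22. The difference was largest on chromosome 18, at 33.2% in the control against 28.5% and 27.4%. Chromosome 13 followed, at 41.6% against 36.4% and 38.2%, and chromosome 14, at 40.8% against 36.8% and 38.2%. These shares were described without a test. In recovered contacts the KO libraries lay on either side of the control on chromosome 18, at 38.0% against 38.3% and 37.8%, and chromosome 13 stood at 38.0% against 38.6% and 36.6%. The smallest differences were on chromosomes 6, 22 and 19, and the exception was gene-rich chromosome 19, at 40.6% in the control, against 41.8% and 39.98% in the KO libraries. Without contacts within a bin 2 chromosomes were below the control in both KO libraries and 10 were above it. In recovered contacts without those within a bin, 0 were below and 13 above. Chromosome 18 was then higher in the KO, at 58.6% in the control against 61.2% and 63.2%.

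For single bins the trans share was tested as log2 of trans over cis signal without the same bin. By limma 0 of 2635 bins were called, while 178 had p under 0.05 before adjustment, and 0 were called in each alternative that kept both KO libraries. The 3 of lowest p, none of which passed, lay on chromosomes 19 and 18. The bin chr19:58000001-59000000 stood at -0.64 in the control, against -0.22 and -0.29 in the KO libraries (difference 0.39, adjusted p = 0.67). The bin chr19:11000001-12000000 stood at 0.44 and at 0.77 and 0.81 (difference 0.35), but its difference in recovered contacts was 0.06. The bin chr18:67000001-68000000 stood at -0.91 and at -1.22 and -1.25 (difference -0.32), but in recovered contacts its difference was 0.14. Both KO libraries were above the control in 46 of 53 bins of chromosome 19, and below it in 64 of 74 bins of chromosome 18, against 38.3% above and 19.8% below over all bins. On chromosome 13 both were below in 50 of 95 bins. Recovered yield was higher in both KO libraries on chromosome 19 and lower in both on chromosomes 18 and 13.

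Within chromosomes, the share of contacts at 20 to 100 Mb was lower in both KO libraries. The share of contacts between different bins at 20 to 50 Mb was 12.5% in the control, 11.1% in KO replicate 1 and 10.6% in KO replicate 2. Each KD library, at 11.5%, was also below the control. The share at 50 to 100 Mb was 4.66%, 4.20% and 3.95%. At 100 Mb and over it was 2.07% in the control, against 1.95% and 2.10% in the KO libraries. In recovered contacts that share was higher in both KO libraries (2.14% against 2.22% and 2.37%). Of 12 chromosomes with this class, both KO libraries were below the control on 6 and above it on 2. In recovered contacts they were below on 1 and above on 8. Neighbouring bins, 1 Mb apart, took 43.2% in the control, against 44.2% and 46.7% in the KO libraries and 44.5% in each KD library. At 20 to 50 Mb both KO libraries lay below the control on all 22 chromosomes (median -0.21) and in recovered contacts on 20 of 22. The KD libraries also lay below the single control on every chromosome at that distance. On some they lay below KO replicate 1 too, as on chromosome 16 (8.58% and 8.57%, against 8.89% in KO replicate 1 and 10.1% in the control). At 50 to 100 Mb both KO libraries lay below the control on 18 of 20 chromosomes, with 14 and 19 as the exceptions. In recovered contacts both KO libraries did so on 13 of 20, with 3 above. In 974 bins whose recovered totals were within 0.25 (log2) of the control in both KO libraries, a set chosen after the data were seen, the share at 20 to 50 Mb was 10.5% in the control, against 9.34% and 8.99% in the KO libraries.

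The shape of the curve showed where the KO and the single control library parted. The KO libraries lay furthest below the control at 34 to 41 Mb, by 0.23 and 0.32 on the log2 scale, where the KD libraries were lower by 0.07 and 0.08. At 16 to 18 Mb the differences were -0.04 and -0.13 in the KO libraries and -0.16 and -0.16 in the KD libraries, so at that distance all 4 other libraries lay below the control. Beyond 110 Mb the KO replicates diverged, with -0.08 and 0.05 at 135 to 163 Mb. The replicates also differed at short range, where replicate 1 was higher than the control by 0.07 at 5 Mb and replicate 2 was at -0.01.

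Per chromosome 0 of 142 distance classes passed limma's test, while 30 had p under 0.05 before adjustment. The 3 of lowest p had values below the control in both KO libraries (adjusted p = 0.12 each by limma, not passed). Chromosome 8 held 5.44% of its contacts between bins at 50 to 100 Mb in the control, against 4.54% and 4.63% in the KO libraries. Chromosome 18 held 2.08% at that distance and 1.46% and 1.25%. Chromosome 2 held 15.5% at 20 to 50 Mb and 13.1% and 13.4%. In each the KO libraries lay below the control and closer to each other than to it. In the same classes the KD libraries were also below the control on chromosomes 18 (1.76% and 1.78%) and 2 (14.5% and 14.6%). They were above it on chromosome 8 (5.55% and 5.62%). With totals taken over 2 Mb and beyond only, 22 classes were called, 6 higher and 16 lower. Chromosome 18 at 50 to 100 Mb was among them (limma adjusted p = 0.040). It was also called with the control and KO libraries alone. That fit leaves 1 residual degree of freedom, and limma also draws on the spread of other distance classes. Those classes come from the same libraries and are not independent replicates. Leaving out KO replicate 1 or 2, so that the KD libraries alone gave the spread, brought 118 and 126 calls. The 3 named classes differed between control and KO by -0.24 (SE 0.039), -0.62 (SE 0.10) and -0.23 (SE 0.037) on the log2 scale.

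**Figure D4:**
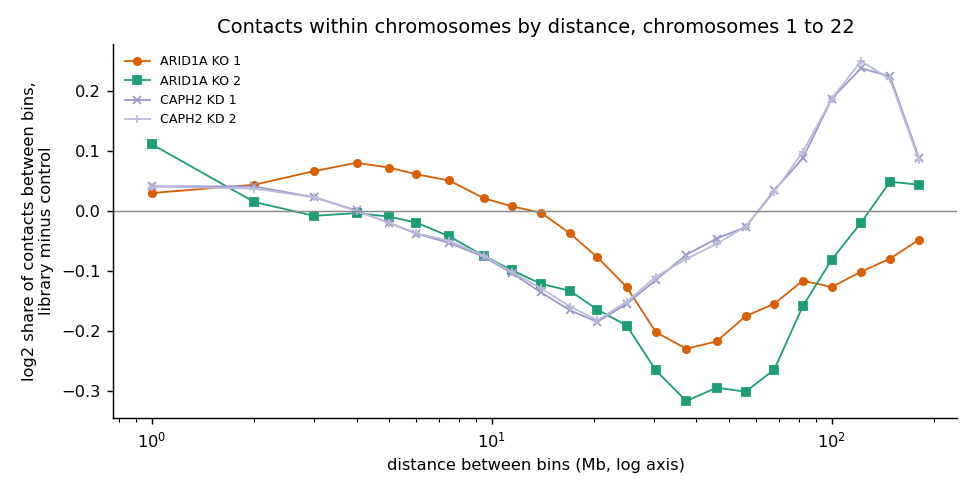
Log2 share of contacts between bins of a chromosome, each library minus the control, against the distance between bins in Mb (log axis), with circles and squares for KO replicates 1 and 2 and crosses for the KD libraries. The KO curves are lowest at 34 to 41 Mb (-0.23 and -0.32), while the KD curves are lowest at 19 to 22 Mb and rise above the control at the longest distances.

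Contacts across the centromere were compared with those within an arm at the same distance on 17 chromosomes with 2 measured arms. Both KO libraries had a lower log2 ratio than the control on 12 chromosomes and a higher one on 2, with medians of -0.26 in the control, against -0.34 and -0.31 in the KO libraries. The KD libraries lay the other way, with medians of -0.13 and -0.14. Chromosome 18 lay furthest below, at -0.36 in the control against -0.63 and -0.87. Chromosomes 9 (1.12 against 0.98 and 0.87) and 16 (-0.22 against -0.37 and -0.33) followed. Chromosome 19 lay furthest above, at -0.84 against -0.70 and -0.51, and with chromosome 11 (-0.26 against -0.24 and -0.18) was above the control in both KO libraries. On chromosome 10 the KO libraries lay on either side of the control. These values were described without a test.

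Compartments were less separated in the KO. Strength was taken as the mean signal over expectation within A and within B divided by that of A-B pairs, taken over the 20% most A-like and 20% most B-like bins in the mean eigenvector of the KD libraries. Within chromosomes it was 3.39 in the control, 2.83 in KO replicate 1 and 3.16 in KO replicate 2 (mean 2.996 ± 0.231, SD, n = 2), and 3.68 and 3.81 in the KD libraries. Both KO libraries were the lowest of the 5. In balanced signal the difference lay mostly in contacts between A and B, at 0.436 times expectation in the control, against 0.5002 and 0.462 in the KO libraries. Contacts of A with A were at 1.36 in the control and 1.33 and 1.34, and of B with B at 1.60, 1.503 and 1.58. Recovered contacts, which keep the yield of each bin, gave A-B values of 0.439, 0.505 and 0.458, with A-A higher in the KO (1.25 against 1.62 and 1.65) and B-B lower (1.53 against 1.08 and 1.12).

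Between chromosomes strength was also lower and A-B contacts were higher in both KO libraries. Trans strength was 2.17 in the control, against 1.84 and 1.97 in the KO libraries, with A-B contacts at 0.646 of expectation in the control, against 0.717 and 0.690 in the KO. Contacts of A with A across chromosomes were at 1.39 in the control and 1.29 and 1.31, and of B with B at 1.42, 1.34 and 1.40. Recovered trans contacts moved the other way from those within chromosomes. Trans A-A was lower in the KO (1.45 against 1.23 and 1.24) and trans B-B higher (1.35 against 1.37 and 1.43). In recovered contacts the strengths were 3.17, 2.67 and 3.01 within and 2.11, 1.79 and 1.91 between chromosomes. In the 974 bins of like recovered total they were 2.41, 2.31 and 2.17 within and 1.60, 1.57 and 1.42 between chromosomes, again lower in both KO libraries. In those bins replicate 2 was the lower of the KO libraries, and over all bins replicate 1 was. The cis part of this set held 152 A and 84 B bins of the outer classes.

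By chromosome 7 of 22 strengths fell and 0 rose (limma adjusted p under 0.05, 31.8% of those tested), and 18 were lower than the control in both KO libraries (81.8%) and 1 above (4.55%). The largest falls were on small chromosomes. Chromosome 19 went from 5.71 in the control to 3.32 and 3.65 in the KO libraries (log2 difference -0.71, SE 0.12, adjusted p = 5.0e-06). Chromosome 21 went from 3.50 to 2.15 and 2.22 (-0.68, adjusted p = 6.1e-06), and chromosome 22 from 3.86 to 2.55 and 2.31 (-0.67, adjusted p = 6.1e-06). By limma every chromosome had the same SE, so the spread was pooled over chromosomes of the same libraries, which are not independent replicates. The small p-values rest on that pooling. In each of the 3 the groups were far apart, and A-B contacts were higher in both KO libraries. They stood at 0.267 of expectation in the control, against 0.423 and 0.344 in the KO on 19, at 0.368, 0.545 and 0.507 on 21, and at 0.404, 0.522 and 0.560 on 22. The gene-rich chromosomes 17 (4.38 to 3.38 and 3.29) and 16 (5.66 to 4.19 and 4.504) also fell, with adjusted p = 0.0088 for both. Chromosomes 11 (4.62 to 3.33 and 4.14) and 10 (3.47 to 2.59 and 3.06) fell with adjusted p = 0.036 and 0.042, where the KO libraries differed more from each other. Neither was called with classes from each library's own eigenvector. With those classes the log2 differences of chromosomes 19, 21 and 22 were -0.42, -0.78 and -0.74.

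The exception was gene-poor chromosome 13, at 2.66 in the control and 2.84 in both KO libraries, which was not called (adjusted p = 0.46). With classes taken from the control its difference was -0.12. Chromosomes 18 and 7 differed by -0.02 and -0.03. KO replicate 1 was lower than replicate 2 on 19 of 22 chromosomes. Recovered yield was higher in the KO on chromosomes 19 and 22 but not on chromosome 21, where it differed by -0.02 and -0.07. In recovered contacts the falls of chromosomes 21 and 22 were called at -0.80 and -0.77 (adjusted p = 0.0056 for both), while chromosome 19 was at -0.25 (adjusted p = 0.093). With the control and KO libraries alone, the 3 chromosomes called were 19, 21 and 22 (adjusted p = 0.048 for each by limma), and 3 were also called with either KD library left out. Without KO replicate 2 there were 16 calls.

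Across chromosomes, A-B contacts were above the control in both KO libraries on 20 of 22. A-A contacts were below it on 12 and above it on 1, and B-B contacts were below it on 12 and above it on 3. The 1 chromosome with lower A-B contacts in both KO libraries was chromosome 13. Eigenvectors of the KO libraries correlated with the control's at a median r of 0.95 (replicate 1, range 0.90 to 0.99) and 0.97 (replicate 2, range 0.89 to 0.99) over 22 chromosomes, against 0.99 for each KD library. On each chromosome the eigenvector most like the KD mean was taken. On chromosome 5 of KO replicate 1 this was not the first eigenvector, whose r with the control was -0.01, against 0.91 for the one taken. These correlations are across bins, which are not independent replicates. The sign of the eigenvector differed from the control in 44 of 2635 bins in both KO libraries, of which 33 went from B to A and 11 from A to B. It differed in 198 bins of KO replicate 1 and 146 of KO replicate 2, and in 256 bins between the KO replicates themselves. For the KD libraries it differed from the control in 87 and 89 bins, and in 44 between them. In the control 1087 of the 2635 bins were A.

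**Figure D5:**
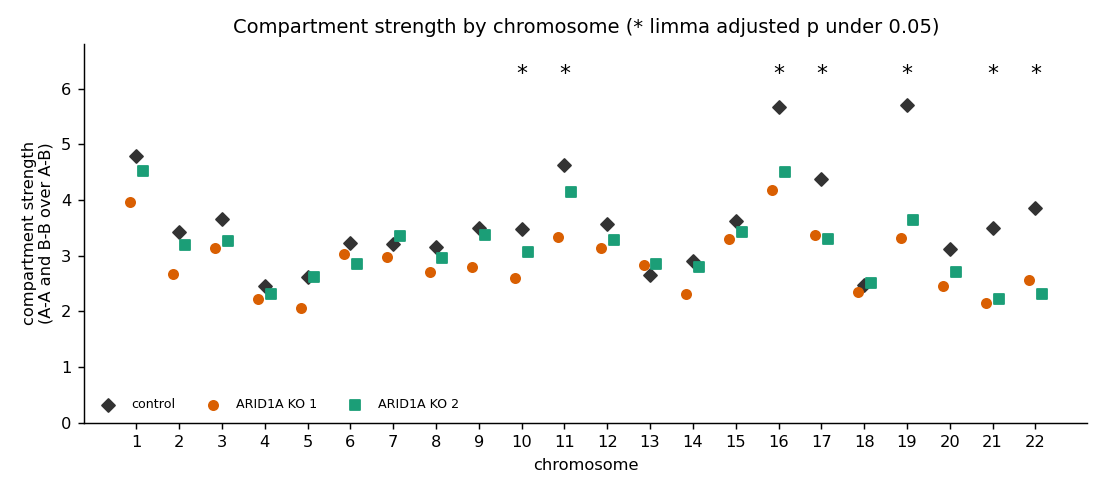
Compartment strength (A-A and B-B over A-B signal, no unit) on each chromosome in the control (diamonds) and KO replicates 1 (circles) and 2 (squares), with an asterisk where limma's adjusted p was under 0.05. The control stands furthest above both KO libraries on chromosomes 19, 21 and 22, and on chromosome 13 it lies below them.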

How the data were processed

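In situ Hi-C was read in 5 RMG1 libraries as the deposited contact signal between 1 Mb bins, 1 matrix per library. The aligner was Bowtie2 and the genome build hg19, per the submitters' processing notes. Its version, any read filters and the balancing program were not given in the sources used here. Values deposited as signal had been balanced, as read from its values: 94.9% to 96.5% of row sums lay within 0.1% of each library's median. It is not counts, so limma 3.58.1 (R 4.3.3) was used on log2 values, with all 5 libraries in 1 fit (2 residual degrees of freedom) and Benjamini-Hochberg adjustment at 0.05 over each family. With 1 control library, the spread rests on the KO and KD pairs. For compartment strength limma also pooled it over all chromosomes.

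Contacts were recovered by estimating a factor per bin, taking the largest step that gave whole numbers, and 98.1% to 99.1% of nonzero values were whole within 0.05. Nearly all others lay midway. Bins under 0.25 of the control's median total were left out (2635 remained). The pseudocount for trans shares was 0.5. Pairs across the centromere were at least 5 Mb apart.

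Members and lists were chosen with earlier results of these data known. The features named were up to 10 calls of each family with the largest change and both KO libraries on 1 side, or the 3 smallest p where fewer than 3 were called, and by chromosome the 3 highest and lowest differences and the exceptions. Alternatives left out each replicate, the KD libraries or the bin filter, or used recovered contacts, a replicate block, other totals or other classes. Bins of like recovered total and joins were added after the data were seen. The limma steps were tested on simulated data. Everything else ran in Python 3.11.15 with numpy 2.4.6, pandas 2.3.3 and scipy 1.17.1. Genes were not placed in bins, since no hg19 annotation was used here.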

Additional observations from a re-analysis of the deposited data

How the results depend on the processing

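Calls depended on which libraries gave the spread. Without KO replicate 1 or 2 the spread came from the KD libraries alone, and calls numbered 158 to 176 for chromosome pairs (10 with all libraries), 429 to 431 for arm pairs (13), 118 to 126 for distance classes (0), 1448 to 1876 for bins (0) and 6 to 16 for compartment strength (7). Without KD replicate 1 or 2 they numbered 21, 0, 1, 0 and 3, and with the control and KO libraries alone 21, 0, 1, 0 and 3. Numbers 1 and 2 of KO and KD are shared in the labels without a stated pairing, and the control's number is only a name. Replicate 1 minus 2 in KO against KD had r = 0.06 over chromosome pairs, 0.02 over bins and -0.21 over distance classes. With a replicate block the calls numbered 23 (chromosome pairs), 3 (arm pairs), 4 (distance classes), 0 (bins) and 4 (strength). The block ended the strength calls of chromosomes 22, 11 and 10, and chromosome 18 at 50 to 100 Mb was among the 4 distance classes. In recovered contacts 40 chromosome pairs (36 lower) and 109 arm pairs (98 lower) were called. With trans totals 1 and 2 were called, and the pair of chromosomes 1 and 10 was the 1. Without the class under 2 Mb, 22 distance classes were called.

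Turned to the other side of 0 in recovered contacts were chromosome 18 with 5 (0.028), 11 (0.045), 10 (0.062), 7 (0.0095) and 4 (0.19), and the bin on chromosome 18 (0.14). With trans totals those with 11 (0.0022), 10 (0.035) and 4 (0.069) turned. The trans share difference of KO and control (-1.48 points) was -1.01 in recovered contacts, -0.95 in bins of like yield and 0.42 without contacts within a bin. It was 2.28 in recovered contacts without those within a bin. Log2 compartment strength differences of -0.18 within and -0.19 between chromosomes became -0.059 and -0.077 with the outer 50% of bins. In bins of like yield the log2 difference between chromosomes became -0.10. The difference within chromosomes was smaller there too, at -0.17 before log2, against -0.39 over all bins. The median difference between arms, taken for each KO library and then averaged, was -0.06, and -0.10 in recovered contacts. The causes were not tested. Depth limited the KO libraries most, whose trans bin pairs had a median of 1 contact.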
